A study of Homo sapiens with 8 samples.

Results

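The probes of 8 genes of the TGFβ superfamily receptors and coreceptors were described on promoter arrays of SMAD3 chromatin immunoprecipitation (ChIP-on-chip) in A549, an established cell line from a human adenocarcinoma of the lung. The genes were chosen by name from a set of 10, by a rule that used no measured value. A probe belonged to a gene when the array's annotation gave it that gene name or a distance to the start of that gene. TGFBR1, TGFBR2, ENG, ACVR1B, ACVRL1, BMPR1A, BMPR2 and BAMBI had 247 of the 474411 probes between them, out of 17554 gene names on the arrays, and TGFBR3 and ACVR1 were not analysed here. The cells of one group were unstimulated and those of the other had received 2 ng/ml TGFβ1 over at most 2 h. Both had been starved of serum beforehand, and no genetic change is named for either. In each of 2 replicates per condition, DNA bound by an anti-SMAD3 antibody (SMAD3 IP, Cy5) was hybridised together with DNA from an anti-FLAG mock IP (Cy3), and the amplified DNA of a replicate was spread over 2 slides that carry different probes. The replicates are called biological in the labels, and nothing else says that they came from separate cultures, so that p-values measure the spread between these samples, which may be technical. Both conditions come from 1 cell line, and chromatin DNA gives no expression markers by which its identity could be checked.

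Members of the TGFβ superfamily signal through a complex of type II and type I receptors, both serine/threonine kinases of the cell surface. The ligand brings them together, the type II receptor phosphorylates the type I receptor, and the type I receptor phosphorylates receptor-regulated SMADs, which enter the nucleus with SMAD4. TGFβ receptors mainly pass the signal to SMAD2 and SMAD3 and BMP receptors to SMAD1, SMAD5 and SMAD9, while coreceptors and pseudoreceptors change the response of the complex. A question these arrays address is therefore whether SMAD3, which acts downstream of the receptors, lies at the promoters of the receptor genes themselves.

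RefSeq promoters on GRCh38.p14, each from 250 bases before to 50 bases after a start, were found for 7 of the genes, with 16 promoters in all. The SMAD box CAGAC, the short element that SMAD3 binds in DNA, was searched on both strands and was present in 45.3% of 35116 promoters of the same length. The promoters of BMPR2, BAMBI and BMPR1A are shown because each of these genes has a single listed start and their counts of the box span the range from 4 to 2 to 0. ENG also has a single listed start with a count of 0, and its promoter is not printed. The gene reads 5′ to 3′, and capitals mark CAGAC or its reverse complement GTCTG.
BMPR2, chr2:202376077-202376376, plus strand: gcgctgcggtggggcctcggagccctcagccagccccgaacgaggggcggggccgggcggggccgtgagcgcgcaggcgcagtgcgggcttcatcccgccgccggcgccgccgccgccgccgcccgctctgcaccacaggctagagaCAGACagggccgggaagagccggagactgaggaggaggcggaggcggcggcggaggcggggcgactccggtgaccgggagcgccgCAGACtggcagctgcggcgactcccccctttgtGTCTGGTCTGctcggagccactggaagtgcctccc
BAMBI, chr10:28677271-28677570, plus strand: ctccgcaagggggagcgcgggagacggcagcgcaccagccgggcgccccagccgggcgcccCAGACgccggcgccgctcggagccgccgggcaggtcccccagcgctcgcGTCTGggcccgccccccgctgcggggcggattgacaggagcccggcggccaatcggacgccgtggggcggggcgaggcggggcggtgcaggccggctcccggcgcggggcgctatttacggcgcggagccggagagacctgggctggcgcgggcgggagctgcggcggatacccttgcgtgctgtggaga
BMPR1A, chr10:86755513-86755812, plus strand: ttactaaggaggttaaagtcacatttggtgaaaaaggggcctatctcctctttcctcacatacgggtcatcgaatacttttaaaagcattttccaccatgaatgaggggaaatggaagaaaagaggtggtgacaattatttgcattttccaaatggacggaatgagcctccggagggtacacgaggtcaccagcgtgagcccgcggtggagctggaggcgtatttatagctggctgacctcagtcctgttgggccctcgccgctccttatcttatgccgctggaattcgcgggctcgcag
The palindrome GTCTAGAC, present in 0.202% of all promoters, was in none of the 16. The AP-1 site TGACTCA or TGAGTCA, present in 4.95% of all promoters, was in 1 promoter of TGFBR2. A match to these letters describes the sequence and is not a bound site. The starts of RefSeq and of the array's annotation may differ, so that distances of probes below refer to the array's start.

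The measure throughout is the log2 ratio between the SMAD3 IP and mock IP signals of a probe, centred on the median of its array. A value of 0 is therefore a probe at the median of the array, and a value of 1 a ratio 2 times as high. Before centring, array medians lay between 0.24 and 0.72, and the SD over the probes of an array was 1.41 to 1.73. By the scanner software's flag, both channels of a probe were well above background for 38.7% to 51.5% of the probes on an array. Of the 247 probes of the receptor and coreceptor genes, 72 were so on all 4 samples, which is 29.1% against 34% of all probes, and 119 were so on no array. Values of single probes are given from these 72. They lay close to the starts, at a median distance of 734.5 bp, against 2246 bp for the other probes.

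The receptor profiles of the log2 ratio were repeatable within a condition and differed between conditions. Over the 247 probes, the log2 ratio correlated with r = 0.90 between the unstimulated replicates and 0.93 between the TGFβ1-stimulated replicates, and with r from 0.16 to 0.24 between samples of different conditions. The same figures over all 473007 probes tested were 0.90, 0.92 and 0.20 to 0.23. The signals of the channels were more alike between conditions than their ratio. Over the 247 probes, r between conditions was 0.87 to 0.91 for the SMAD3 IP signal and 0.73 to 0.76 for the mock IP signal. Over the 72 probes above background it was 0.79 to 0.88 and 0.43 to 0.56, and over all probes 0.78 to 0.82 and 0.67 to 0.71. These correlations are across probes of the same arrays, which are not independent. Within the genes, the log2 ratio profile of TGFBR2 was the most alike between conditions, with r from 0.64 to 0.75 over 33 probes. That of ENG was the least alike, with r from -0.31 to -0.11 over 25 probes.

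**Figure D1:**
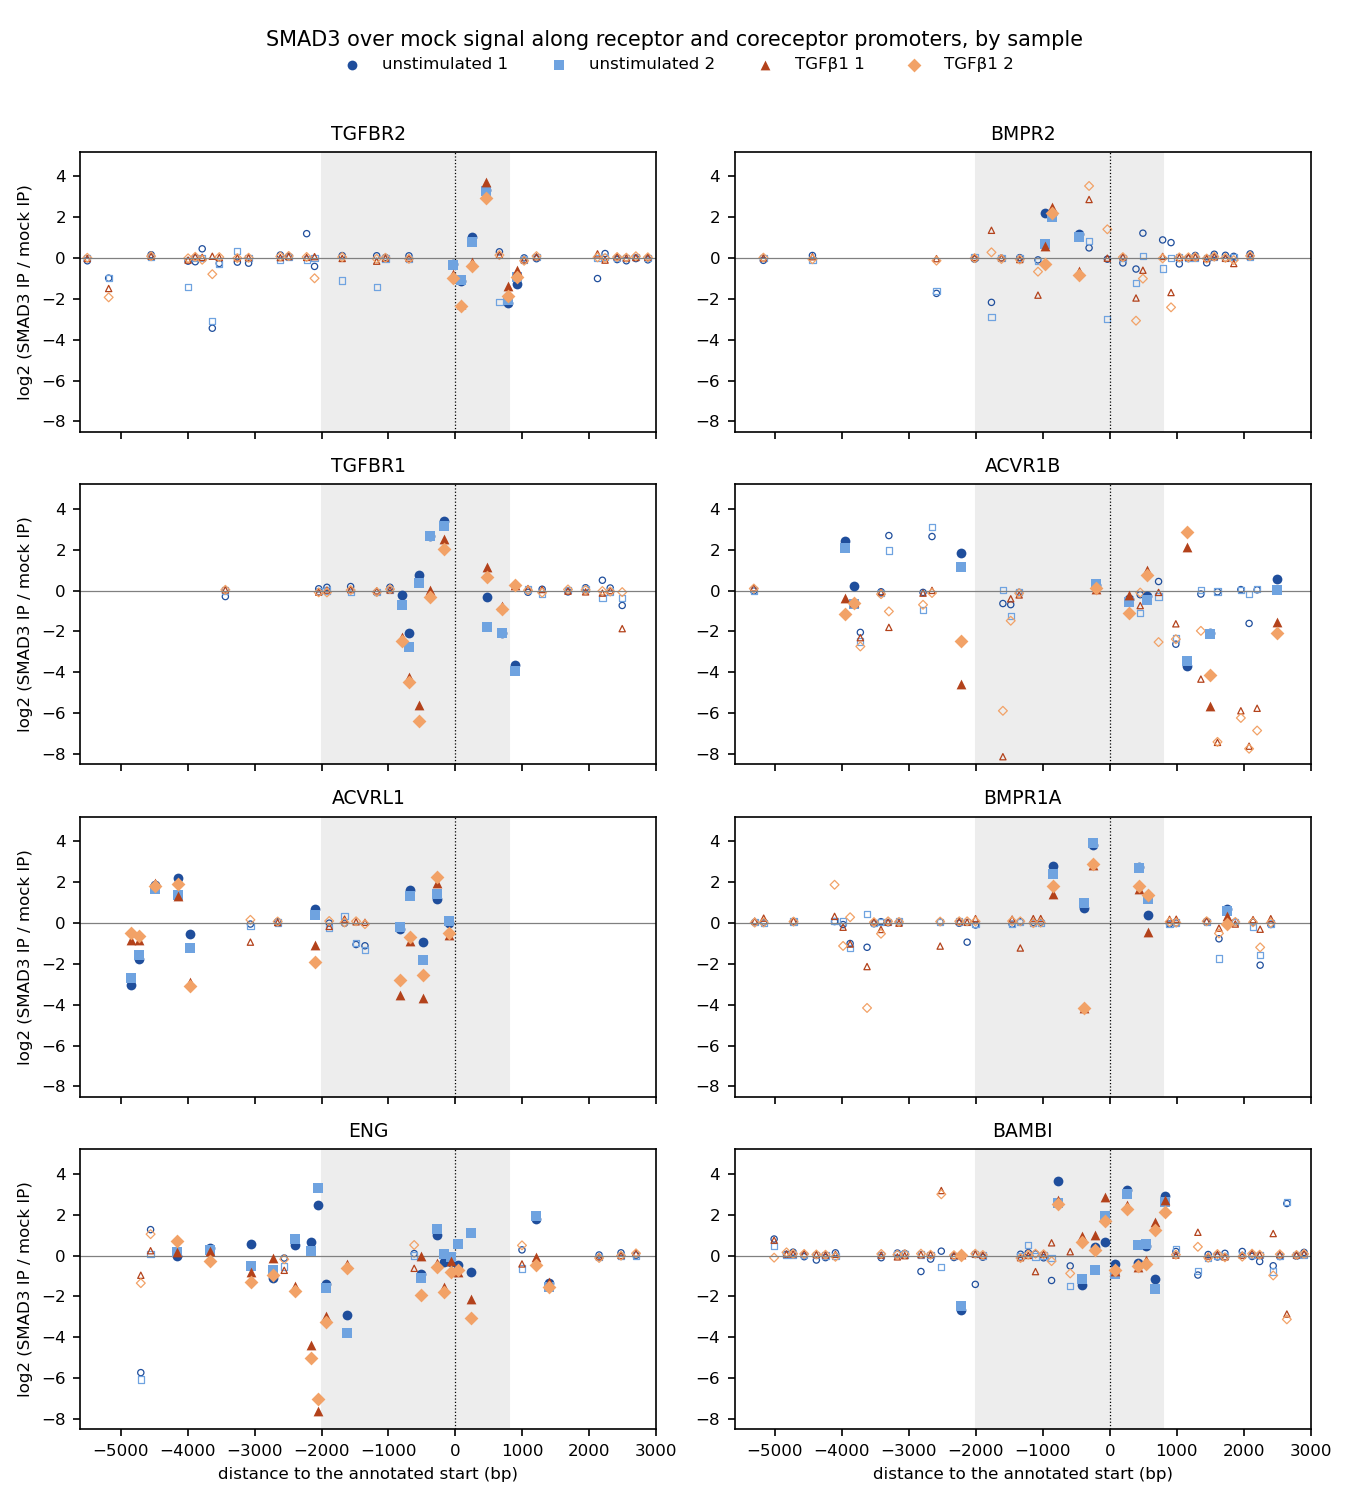
The log2 ratio (SMAD3 IP over mock IP signal) of each probe is plotted against its distance to the annotated start in bp for 8 genes, with a colour and a marker for each of the 4 samples. Filled markers are probes well above background in both channels on all 4 arrays, small open markers are the others, grey shading marks the promoter window, and 20 probes of BMPR1A lie outside the plotted range. Filled markers cluster near the start, and the lowest of them are the stimulated samples at the ENG probe 2051 bp upstream.

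TGFβ1 stimulation was accompanied by a lower SMAD3 over mock ratio at the promoters of 5 of the 8 genes and by a higher one at none, also at an unadjusted p under 0.05 in limma. The promoter window was the mean of all probes that lay at most 2000 bp before or 800 bp past the start. It held 8 to 16 probes of each gene, and the window change is the difference of the stimulated minus the unstimulated mean. It fell for TGFBR1, BMPR1A, ACVR1B, ENG and ACVRL1. Among all 16335 gene windows, 20.1% were higher and 26.9% lower after stimulation at an adjusted p under 0.05. The median change was -0.57 over the 8 genes and -0.06 over all genes, and the latter was 0.08 in the deposited log2 ratios without centring. With the median of the probes in place of their mean, 0 of the 8 windows passed in either direction, with or without adjustment. With a normexp background correction only TGFBR1 passed after adjustment. At an unadjusted p under 0.05, 3 windows were then lower, TGFBR1 among them.

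**Figure D2:**
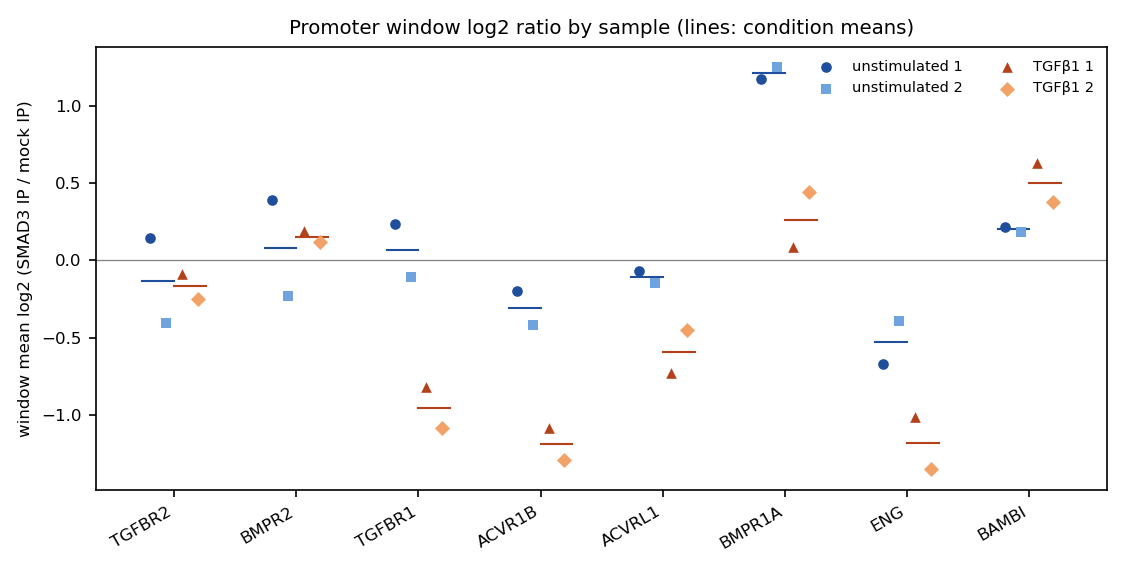
The mean log2 ratio of the probes in the promoter window is plotted for each of the 4 samples of each gene, with a line at the mean of each condition. Both stimulated samples lie below both unstimulated samples for TGFBR1, ACVR1B, ACVRL1, BMPR1A and ENG, and above them for BAMBI.

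Among the type II receptors, TGFBR2, which binds TGFβ1 itself, showed no change of its window that passed the test. Its window ratios were 0.14 and -0.41 in the unstimulated and -0.08 and -0.25 in the stimulated samples, so that the groups overlapped. The change was -0.04, with a 95% interval from -0.50 to 0.43 (adjusted p = 0.904). The probe with the highest ratio in both conditions lay 452 bp downstream of the start, with 3.32 and 3.27 in the unstimulated and 3.74 and 2.94 in the stimulated samples. SMAD3 IP exceeded the mock there in all 4 samples (adjusted p = 0.0049 unstimulated and 0.0047 stimulated). Closer to the start, 2 probes fell after stimulation. The ratios 77 bp downstream were -1.14 and -1.05 in the unstimulated and -2.27 and -2.35 in the stimulated samples. At 247 bp downstream they were 1.06 and 0.79 against -0.19 and -0.41, with the groups apart at both probes. The changes were -1.22 at each (adjusted p = 0.0098 and 0.0237). Of the 33 probes, 22 were not above background in both channels on any array, and the window taken within 500 bp of the start gave a change of -0.74 (adjusted p = 0.017). Over the window probes above background throughout the change was -0.49 (adjusted p = 0.049).

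BMPR2, the type II receptor for bone morphogenetic proteins, likewise did not pass the test of a change over its window. The window ratios were 0.39 and -0.23 in the unstimulated and 0.19 and 0.12 in the stimulated samples, with the stimulated values inside the unstimulated range. The change was 0.07, with a 95% interval from -0.42 to 0.57 (adjusted p = 0.807). Without unstimulated replicate 2 it was -0.24. Only 3 of the 13 probes in the window were above background throughout, and over these alone the change was -0.95 (adjusted p = 0.006). One of the 3 was enriched in both conditions. It lay 864 bp upstream, outside the 300 bases printed above, with ratios of 2.16 and 2.02 in the unstimulated and 2.52 and 2.20 in the stimulated samples. At 458 bp upstream the ratio was 1.17 and 1.03 in the unstimulated and -0.65 and -0.80 in the stimulated samples. This was a fall of the log2 ratio by 1.82 (SE 0.12, adjusted p = 0.00621), with the groups far apart. Another 3 probes, the nearest 309 bp upstream, were called higher and 1 lower without being above background in both channels on all arrays, and no fold is given for them. The probe 36 bp upstream, the only one of the 3 nearest the start that falls within the span of the printed sequence, was not above background in both channels on all arrays, and no ratio is given for it.

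Among the type I receptors, TGFBR1, the partner of TGFBR2 that phosphorylates SMAD3, had window ratios of 0.24 and -0.11 in the unstimulated and -0.82 and -1.08 in the stimulated samples. The groups did not overlap, and the change was -1.02 (SE 0.17, adjusted p = 0.00246). Within 500 bp of the start the change was -0.62 and did not pass (adjusted p = 0.089). Single probes in and beside the window moved in both directions. Upstream of the start, 4 probes fell. The lowest was 546 bp upstream, with ratios of 0.78 and 0.36 in the unstimulated and -5.62 and -6.38 in the stimulated samples (change -6.57, adjusted p = 0.00432). At 379 bp upstream the ratio was 2.65 and 2.69 in the unstimulated and 0.01 and -0.33 in the stimulated samples (adjusted p = 0.00491). The other two, 686 and 796 bp upstream, fell by 1.90 and 1.94. Downstream of the start, 2 probes rose. The ratios 893 bp downstream, just outside the window, were -3.65 and -3.94 in the unstimulated and 0.30 and 0.27 in the stimulated samples (change 4.08, adjusted p = 0.00268), and the probe at 701 bp downstream rose by 1.25. Between these flanks, 176 bp upstream, the ratio was high in both conditions, with 3.41 and 3.18 in the unstimulated and 2.53 and 2.04 in the stimulated samples. That probe did not pass the test of a change (adjusted p = 0.0767). Within 500 bp of the start the stimulated mean was 1.02, where over the whole window it was -0.95.

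ACVR1B, a type I receptor for activins that also phosphorylates SMAD3, had window ratios of -0.20 and -0.42 in the unstimulated and -1.09 and -1.29 in the stimulated samples. Both stimulated values lay below the unstimulated ones, with a change of -0.88 (SE 0.15, adjusted p = 0.00265). Only 3 of its 8 window probes were above background throughout, and over these the change was 0.30 (adjusted p = 0.215). Within 500 bp of the start it was -0.045 (adjusted p = 0.867). Among probes above background throughout, its changes were largest outside the window. At 1153 bp downstream the ratio was -3.71 and -3.44 in the unstimulated and 2.13 and 2.85 in the stimulated samples, the largest rise among the 72 probes (change 6.06, adjusted p = 0.00415). At 2222 bp upstream it was 1.86 and 1.16 in the unstimulated and -4.59 and -2.47 in the stimulated samples (change -5.05, adjusted p = 0.0416). The probe 3948 bp upstream, with 2.42 and 2.09 in the unstimulated and -0.35 and -1.15 in the stimulated samples, fell by 3.01. Probes at 2497 bp downstream and 562 bp downstream changed by -2.13 and 1.25. Another 7 probes were lower after stimulation without being above background in both channels on all arrays. Of these, 4 lay from 1609 to 2201 bp downstream, and on all 4 the mock IP was above background on both stimulated arrays. On 3 of the 4 it was above background on neither unstimulated array. No fold is given for them.

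ACVRL1, a type I receptor of endothelial cells that binds TGFβ and bone morphogenetic proteins, was covered by 17 probes, all upstream of the start. The window ratio was -0.07 and -0.15 in the unstimulated and -0.73 and -0.45 in the stimulated samples, with a change of -0.48 (SE 0.15, adjusted p = 0.0330) and no overlap. It did not pass in the uncentred ratios, at -0.35 (adjusted p = 0.083), or within 500 bp of the start, at -0.51 (adjusted p = 0.106). Enrichment in both conditions was found at 3 probes. The nearest, 275 bp upstream, had 1.16 and 1.41 in the unstimulated and 1.96 and 2.25 in the stimulated samples. The others lay 4487 and 4142 bp upstream, far outside the window. At 4487 bp upstream the ratio was 1.89 and 1.65 in the unstimulated and 1.97 and 1.80 in the stimulated samples, which overlap. At 4142 bp upstream it was 2.22 and 1.36 in the unstimulated and 1.31 and 1.94 in the stimulated samples, which overlap as well. Within the window 3 probes fell. At 832 bp upstream the ratio was -0.31 and -0.19 in the unstimulated and -3.50 and -2.80 in the stimulated samples. At 684 bp upstream it was 1.62 and 1.34 in the unstimulated and -0.88 and -0.67 in the stimulated samples. The changes were -2.90 and -2.25 (adjusted p = 0.0135 and 0.00731). The third, 96 bp upstream, changed by -0.59 (adjusted p = 0.0485). Farther upstream, 2 probes at 4846 and 4731 bp rose, by 2.21 and 0.91, and 2 at 3960 and 2104 bp fell, by 2.11 and 2.03.

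BMPR1A, a type I receptor for bone morphogenetic proteins, had the highest unstimulated window ratio of the 8 genes. It was 1.18 and 1.25 in the unstimulated samples and 0.09 and 0.44 in the stimulated samples. The unstimulated mean of 1.21 was at the 97.2nd percentile of all gene windows and above 0 (adjusted p = 9.99e-05), and the stimulated mean of 0.26 did not pass that test. The unstimulated mean did not pass it after normexp, at 0.73 (adjusted p = 0.135), or over all probes of the gene, at 0.13 (adjusted p = 0.094). With the median of the probes it was 0.68 (adjusted p = 0.105). The fall between them was 0.95 on the log2 scale, given as a change of -0.95 (SE 0.16, adjusted p = 0.00246). Among its probes above background throughout, enrichment in both conditions was found at 3, which flank the start. The one 257 bp upstream had the highest ratios of any of the 72 probes in the unstimulated samples, 3.84 and 3.93, and 2.84 and 2.92 in the stimulated ones. At 440 bp downstream the ratio was 2.75 and 2.68 in the unstimulated and 1.66 and 1.83 in the stimulated samples. Both of these probes were therefore lower after stimulation while staying above 0, with changes of -1.01 and -0.97 (adjusted p = 0.0135 and 0.0187). The third, 841 bp upstream, had 2.79 and 2.43 in the unstimulated and 1.44 and 1.81 in the stimulated samples (adjusted p of the change = 0.0743). At 378 bp upstream, between 2 enriched probes, the ratio was 0.74 and 0.98 in the unstimulated and -4.17 and -4.18 in the stimulated samples. The fall there was 5.03 on the log2 scale, a change of -5.03 with an SE of 0.13 (adjusted p = 0.00209). Of the 53 probes of the gene, 35 were above background in both channels on no array, and some lay as far as 121868 bp downstream. The promoter sequence printed above for this gene holds no CAGAC. By their annotated distances, these 3 enriched probes lie outside its span of 250 bases before to 50 bases after the start.

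ENG, endoglin, a coreceptor best known in endothelial cells, had the most probes above background throughout, 17 of 25. Its window ratio was below 0 in every sample, at -0.67 and -0.39 in the unstimulated and -1.01 and -1.35 in the stimulated samples. The stimulated values were the lower ones, with a change of -0.65 (SE 0.17, adjusted p = 0.0181). It did not pass after loess, at -0.49 (adjusted p = 0.075), or in the uncentred ratios, at -0.50 (adjusted p = 0.064). No probe of the gene was enriched in both conditions. The largest change of any of the 72 probes lay 2051 bp upstream, just outside the window, where the ratio was 2.50 and 3.32 in the unstimulated and -7.63 and -7.01 in the stimulated samples. This was a change of -10.23 (SE 0.42, adjusted p = 0.00297), from enrichment in the SMAD3 IP to enrichment in the mock IP. The neighbour at 2154 bp upstream went from 0.66 and 0.24 to -4.38 and -5.01 (change -5.14, adjusted p = 0.00518). The adjoining probes at 2402 and 1932 bp upstream fell by 2.27 and 1.62. Next to these, 1616 bp upstream, the ratio was -2.92 and -3.80 in the unstimulated and -0.42 and -0.61 in the stimulated samples, a rise of 2.84 (adjusted p = 0.0214). Nearer the start, probes 279 and 166 bp upstream fell by 1.61 and 1.54, and 1204 bp downstream 1 probe fell by 2.13.

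BAMBI, a pseudoreceptor that lacks a kinase domain and inhibits the receptors, was the only one of the 8 genes whose stimulated window ratio was above 0 with an adjusted p under 0.05. The window ratio was 0.22 and 0.19 in the unstimulated and 0.63 and 0.37 in the stimulated samples. The stimulated mean of 0.50 was above 0 (adjusted p = 0.00446) and at the 90.3rd percentile of all gene windows. Without stimulated replicate 1 it was 0.37 and missed the threshold (adjusted p = 0.058), and the window of BMPR1A was then the one above 0. The groups did not overlap, but the change of 0.30 missed the threshold (95% interval -0.04 to 0.65, adjusted p = 0.130). It passed after loess, at 0.45 (adjusted p = 0.024), and in the uncentred ratios, at 0.46 (adjusted p = 0.030). Enrichment in both conditions was found at 3 probes on either side of the start. At 256 bp downstream the ratio was 3.21 and 3.0 in the unstimulated and 2.47 and 2.28 in the stimulated samples. At 824 bp downstream it was 2.91 and 2.64 against 2.70 and 2.15, and at 768 bp upstream 3.65 and 2.56 against 2.74 and 2.50. None of these probes passed the test of a change. Of its probes above background throughout, another 3 rose, all of them from a ratio below 0. At 419 bp upstream it went from -1.42 and -1.15 to 0.95 and 0.67, and at 669 bp downstream from -1.17 and -1.65 to 1.63 and 1.25. At 2222 bp upstream it went from -2.65 and -2.48 to 0.07 and 0.03, the level of the array median. The rises were 2.09, 2.85 and 2.62 (adjusted p = 0.00962, 0.0104 and 0.00331). The probe 76 bp upstream, inside the sequence printed above, had 0.68 and 1.95 in the unstimulated and 2.85 and 1.70 in the stimulated samples. Those values overlap (adjusted p of the change = 0.531). A single probe above background throughout, 536 bp downstream, fell by 0.84.

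Over all 247 probes, 19 were higher and 35 lower after stimulation at an adjusted p under 0.05, beside 10.5% higher and 12.4% lower of all probes. These are 7.69% and 14.2% of the members' probes. Of these 54 calls, 36 were at probes above background throughout, with 10 higher and 26 lower of 72, and 19% and 25.5% of all such probes on the arrays were called. The other 18 calls were at probes of TGFBR2, ENG, ACVR1B, ACVRL1, BMPR2 and BAMBI, and no fold is given for them. The calls rest on 2 samples per condition. Leaving out a sample leaves a single one in its condition. The spread of a probe or window then comes from the other condition alone. Without unstimulated replicate 1 the counts were 6 higher and 7 lower, without unstimulated replicate 2 they were 6 and 8, without stimulated replicate 1 they were 7 and 19, and without stimulated replicate 2 they were 9 and 21. Of the 36 changed probes, 4 passed in every one of these fits, namely ENG 2051 bp upstream, BMPR1A 378 bp upstream, TGFBR1 893 bp downstream and BAMBI 2222 bp upstream. Among the windows, ACVRL1 did not pass without either unstimulated replicate or without stimulated replicate 1, with adjusted p of 0.103, 0.051 and 0.131. ENG did not pass without unstimulated replicate 2 (adjusted p = 0.058) or stimulated replicate 2 (adjusted p = 0.111). In these fits the window change lay from -1.19 to -0.85 for TGFBR1 and from -0.99 to -0.77 for ACVR1B. For BMPR1A it lay from -1.13 to -0.77.

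Enrichment within a condition was tested against 0, the array median. In the unstimulated samples 26 probes were above and 26 below it, beside 8.92% and 17.4% of all probes. After stimulation 19 were above and 41 below, beside 8.22% and 18.5% of all probes. The zero point depends on centring, since in the deposited ratios without it 92 probes were above and 27 below in the unstimulated and 128 and 34 in the stimulated samples, and after loess 35 and 21, and 26 and 30. Enrichment in both conditions was found at 13 probes, 5.26% against 4.27% of all probes, of which 12 were above background throughout. Depletion in both was found at 13, beside 8.29% of all probes. The 12 belonged to TGFBR2, BMPR2, TGFBR1, ACVRL1, BMPR1A and BAMBI, and none to ENG or ACVR1B. Of the windows, that of BMPR1A was above 0 and those of ENG and ACVR1B below it in the unstimulated samples, beside 20.5% above and 37.5% below of all genes. After stimulation that of BAMBI was above and those of TGFBR1, ENG, ACVR1B and ACVRL1 below, beside 16.4% and 42% of all genes. Without centring, 5 windows were above and 0 below before and 4 above and 3 below after stimulation.

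**Figure D3:**
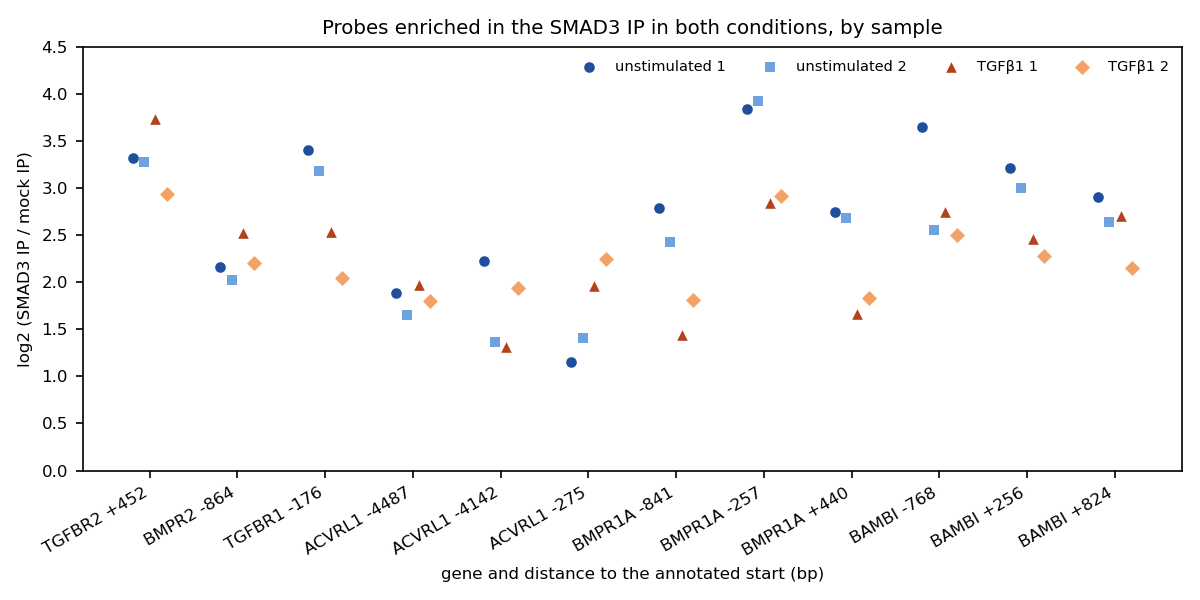
The log2 ratio (SMAD3 IP over mock IP signal) is plotted for each of the 4 samples at the 12 probes that were above 0 in both conditions, labelled by gene and distance to the start in bp. Every point lies above 1. Both stimulated samples lie below both unstimulated ones at TGFBR1 -176, at BMPR1A -841, -257 and +440 and at BAMBI +256, and above them at ACVRL1 -275 and BMPR2 -864.

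A ratio can move through either channel, so the SMAD3 IP and the mock IP signals were also examined apart, each centred on the array median. At the probes that changed, the mock IP signal mostly differed more than the SMAD3 IP signal. Of the 36 changed probes, the change of the mock signal was the larger in absolute size at 27, which is 75%, beside 58% of 71508 changed probes over the whole arrays. Of the 26 probes with a lower ratio, the mean mock signal was higher after stimulation at 23 and the mean SMAD3 signal lower at 15. Of the 10 with a higher ratio, the mock signal was lower at 9 and the SMAD3 signal higher at 6. At the ENG probe 2051 bp upstream, the log2 mock signal was 1.19 and 2.28 in the unstimulated and 9.31 and 9.77 in the stimulated samples, while the SMAD3 signal was 3.88 and 5.72 against 1.69 and 2.84. At the BMPR1A probe 378 bp upstream, the mock signal was 3.28 and 3.60 in the unstimulated and 8.89 and 8.79 in the stimulated samples. The SMAD3 signal there was 4.59 and 5.26 against 5.29 and 5.43. The ACVR1B probe 1153 bp downstream showed the opposite, with a mock signal of 8.64 and 8.48 in the unstimulated and 2.91 and 4.03 in the stimulated samples. These mock signals do not overlap between conditions. The SMAD3 signal was the one that differed at the ACVR1B probe 3948 bp upstream, with 4.24 and 4.28 in the unstimulated and 1.44 and 1.35 in the stimulated samples, beside a mock signal of 1.26 and 1.5 against 1.22 and 1.69. At the enriched BMPR1A probe 257 bp upstream it went from 10.66 and 10.78 to 8.29 and 9.49, and the mock signal from 6.25 and 6.17 to 4.88 and 5.76. The part of the mock channel in the changes was not tested beyond these values.

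**Figure D4:**
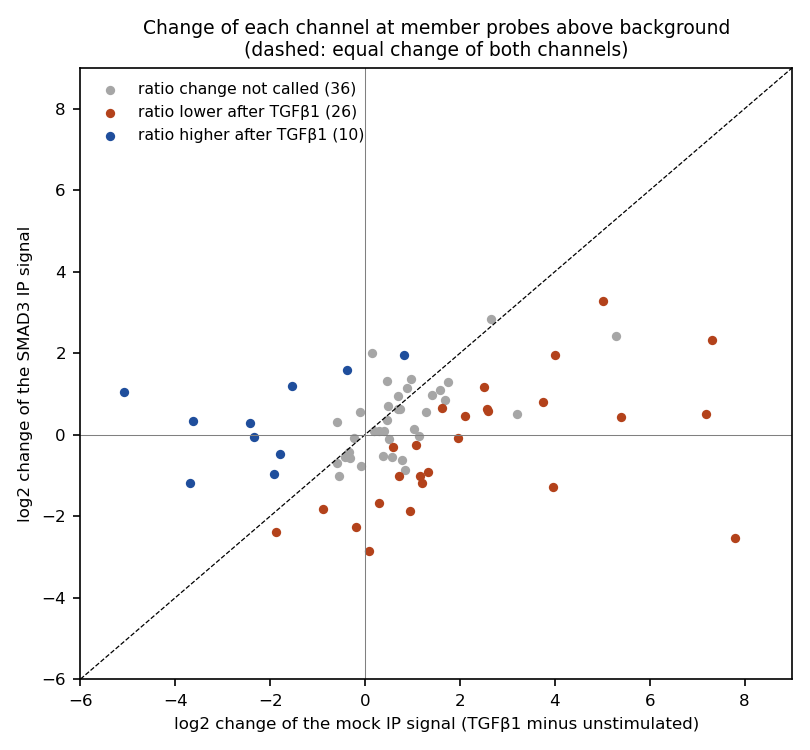
The change of the log2 SMAD3 IP signal (vertical axis) is plotted against that of the log2 mock IP signal (horizontal axis), stimulated minus unstimulated, at the 72 probes above background throughout. Of the 26 red points with a lower ratio, 23 lie to the right of 0, and of the 10 blue points with a higher ratio, 9 lie to the left of it.

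Over the promoter windows, no change of either channel alone passed for any of the 8 genes in limma. At an unadjusted p under 0.05, the SMAD3 channel had 0 higher and 1 lower and the mock channel 2 higher and 0 lower. Over all genes, 0.777% of windows were higher and 2.15% lower in the SMAD3 IP channel, and 6.37% and 7.74% in the mock IP channel. The mock change was 1.85 for TGFBR1, with levels of 1.94 and 3.34 in the unstimulated and 4.42 and 4.55 in the stimulated samples, and its adjusted p was 0.112. For BMPR1A the mock level was 1.34 and 1.27 in the unstimulated and 2.03 and 1.82 in the stimulated samples, and the SMAD3 level was 3.08 and 3.21 against 2.69 and 3.08. The mock groups of BMPR1A did not overlap (change 0.62, adjusted p = 0.136). The SMAD3 level of ACVRL1 was 2.94 and 3.02 in the unstimulated and 1.96 and 2.27 in the stimulated samples, again without overlap (change -0.86, adjusted p = 0.233). The 5 genes on the first slide, TGFBR1, TGFBR2, ENG, BMPR2 and BAMBI, all had their lowest level in both channels in unstimulated replicate 1. On that array the median mock signal was 102.7, against 46.5 to 50.7 on the other 3 arrays of that slide. Without that replicate 4 windows were higher in the mock channel, and without unstimulated replicate 2 it was 7. Quantile normalization between arrays also gave 4 higher in the mock channel, and 1 higher and 1 lower in the SMAD3 channel.

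**Figure D5:**
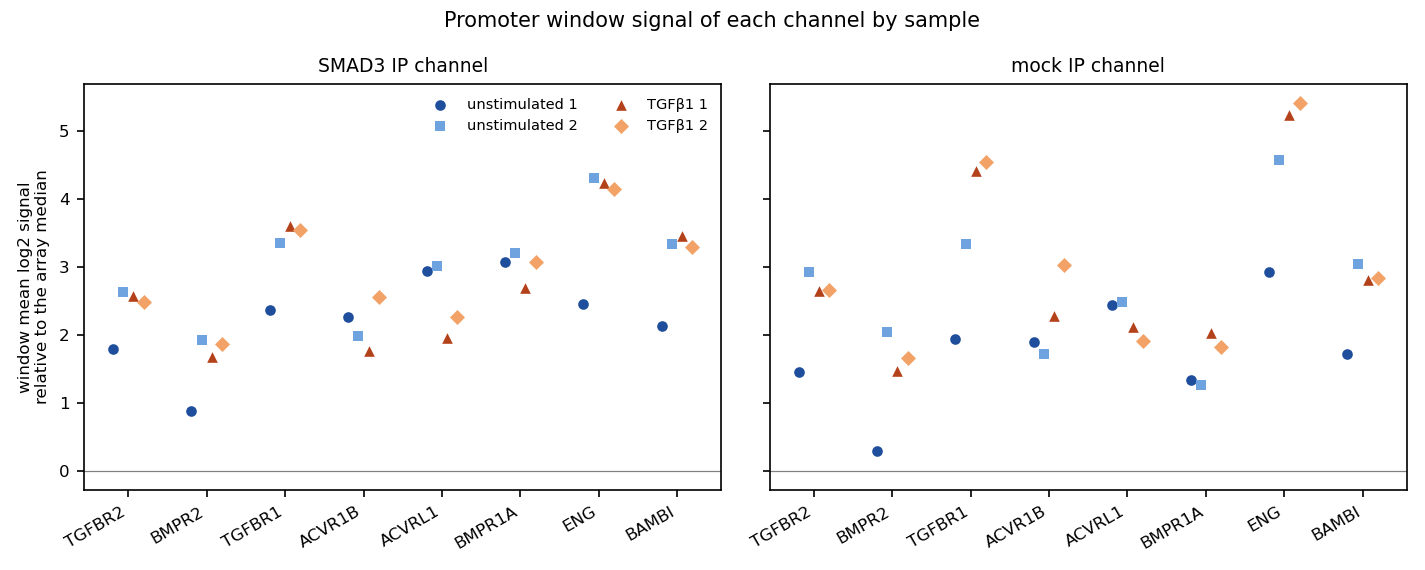
The mean log2 signal of the promoter window relative to the array median is plotted for each of the 4 samples and 8 genes, with the SMAD3 IP channel on the left and the mock IP channel on the right. In unstimulated replicate 1 the levels of TGFBR2, BMPR2, TGFBR1, ENG and BAMBI are the lowest in both channels.

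Of 47 genes on 6 lists of further receptors, coreceptors, ligands, antagonists with latent binding proteins, SMAD proteins and regulators, 44 had a window, and 12 were higher and 11 lower after stimulation, beside 20.1% higher and 26.9% lower of all windows. Their median change was 0.01. Of 5 other type I and type II receptors, 1 was higher and 0 lower, and of 3 other coreceptors 1 was higher and 0 lower. The 12 ligands had 4 higher and 3 lower, the 8 SMAD proteins 2 and 2, and the 9 receptor and SMAD regulators 3 and 2. Of the 7 antagonists and latent binding proteins, 1 was higher and 4 lower, with a median change of -0.82. The largest rises were those of GREM1, a secreted antagonist of bone morphogenetic proteins, STRAP, a protein that binds TGFβ receptors, INHBA, a subunit of activin, and SMURF1, a ubiquitin ligase that acts on the receptors and SMADs. Their window changes were 1.43, 1.20, 1.04 and 0.99. The largest falls were those of SMAD6, an inhibitory SMAD, BMP4 and BMP6, both ligands of the bone morphogenetic protein receptors, and LTBP3, which binds latent TGFβ. Their window changes were -1.71, -1.33, -1.17 and -1.08. The ratio of SMAD6 was 0.07 and -0.06 in the unstimulated and -1.90 and -1.51 in the stimulated samples, and that of GREM1 -1.68 and -1.69 against -0.32 and -0.20, so that GREM1 rose towards the array median without exceeding it. In the mock IP channel alone, the window changes were -1.98 for GREM1, -1.27 for INHBA, 1.40 for BMP4 and 1.98 for BMP6. Of these, GREM1 and BMP4 passed in limma (adjusted p = 0.0104 and 0.0232). In the SMAD3 IP channel the changes were -0.48, -0.34, 0.14 and 0.69, and none passed. For LTBP3 they were -0.10 in the mock IP and -1.11 in the SMAD3 IP channel, and neither passed. The channels of STRAP, SMURF1 and SMAD6 are not given here.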

How the data were processed

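ChIP-on-chip of SMAD3 IP against mock IP was measured on 8 two-colour Agilent promoter arrays. From Agilent Feature Extraction 9.5.1.1 the authors deposited, for each spot, an intensity of both channels, background-subtracted and dye-scaled per array, with surrogate values for dim spots, and a log2 ratio in a series matrix that matched the intensities within 3.13e-06. The software's flags, deposited as other values, marked outliers and signals above background. The probe annotation names no genome build, so no probe coordinates are given. The paper mentions 3 replicates, and the 8 arrays hold 2 of each condition. The time of stimulation is given differently in its sections, and the labels' wording was used.

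Control spots and 1404 outlier probes were left out. Both slides of a replicate were combined, and log2 ratios were centred on each array's median. Changes and enrichment were tested in limma 3.58.1 (R 4.3.3, lmFit and eBayes, two-sided, Benjamini-Hochberg over all 473007 probes or 16335 windows of at least 3 probes, threshold 0.05). The scripts were tested on simulated data. The model-based peak program of the study was not used. The number of arrays limits the precision. Each physical slide held 1 array, so that slide and sample cannot be told apart. The genes, lists and tests were chosen with earlier results of these data known. Named probes were taken from the 3 nearest each start and the highest of each condition. Probes changed or enriched in both conditions while above background on all 4 arrays were named as well. Some of the nearest and highest probes, none of them called in the change, are not described. Further genes were the 4 largest changes in each direction on the lists. Alternatives were normexp, loess, no centring, filters on dim probes, the replicate number as a block, other windows and leaving out each sample.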

Additional observations from a re-analysis of the deposited data

How the results depend on the processing

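Signal over background and the number of samples limit these results, and 119 of the 247 probes were above background in both channels on no array. Of the 36 changed probes, 33 passed after loess, 34 without centring, 36 in separate fits per slide and 6 after normexp (offset 50), and none reversed under any of the alternatives run. Whether the replicate numbers pair the samples cannot be told from 2 pairs (correlation of deviations 0.02 over probes and 0.10 over windows). With the replicate number as a block, 16 probes were higher and 28 lower, 28 of the 36 changed probes passed, and the window counts were unchanged at 0 higher and 5 lower. Over windows, the deviations correlated at -0.30 in the SMAD3 IP channel and at 0.12 in the mock IP channel. With the numbers crossed, which was chosen after seeing the data, 11 probes were higher and 1 unstimulated window was below 0, and in the SMAD3 channel 0 of the 8 windows passed. Leaving out 1 sample gave 6 to 9 probes higher and 7 to 21 lower in the change, 10 to 20 above and 13 to 28 below 0 in the unstimulated, and 11 to 13 above and 23 to 29 below in the stimulated samples. Among windows it gave 0 higher and 3 to 4 lower in the change, 1 above and 1 below 0 in the unstimulated, 1 above (BMPR1A in place of BAMBI without stimulated replicate 1) and 4 below in the stimulated samples, 0 in the SMAD3 channel and 0 to 7 higher in the mock channel.

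After normexp, 1 probe was higher and 5 lower, 3 were above and 1 below 0 in the unstimulated and 7 above and 12 below in the stimulated samples. Its window counts were 1 lower in the change, 0 above and 0 below in the unstimulated, and 2 above and 2 below in the stimulated samples. Without centring, 92 and 128 probes were above 0 in the unstimulated and stimulated samples, and the windows gave 1 higher and 3 lower in the change, 5 above and 0 below in the unstimulated and 4 above in the stimulated samples. Loess gave 1 window higher and 4 lower in the change, 5 above and 0 below in the unstimulated and 3 above in the stimulated samples. Over probes above background in both channels, 12 probes were higher, and windows gave 3 above and 1 below in the unstimulated and 3 above in the stimulated samples. With at least 1 channel above background it was 1 below and 2 above. Within 500 bp of the start, 3 windows were lower, 4 above and 0 below in the unstimulated, 2 above and 2 below in the stimulated samples, and 1 was higher in the mock channel. All probes of a gene gave 0 above in the unstimulated samples and 1 higher in the mock channel. The median of the probes gave 0 lower, 0 above or below in either condition and 1 higher in the mock channel. Quantile normalization gave 4 higher in the mock and 1 higher and 1 lower in the SMAD3 channel.

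Signs turned as follows, and the cause was not tested beyond the probes or samples left out. The window change of ACVR1B was 0.30 over probes above background in both channels. That of BMPR2 was -0.0073 and -0.95 over probes above background in at least 1 and in both channels, between -0.24 (without unstimulated replicate 2) and 0.39 (without unstimulated replicate 1) when a sample was left out and -0.029 with the median. That of TGFBR2 was 0.12 without centring, from -0.31 (without unstimulated replicate 2) to 0.05 (without stimulated replicate 2) and 0.24 (without unstimulated replicate 1) when a sample was left out, 0.10 with all probes and 0.23 with the median. The unstimulated window of ACVR1B was 0.068 after normexp, 0.19 after loess and 0.26 without centring, and that of ENG 0.078 after normexp and 0.21 within 500 bp. The stimulated window of ACVR1B was 0.12 over probes above background in both channels, that of ACVRL1 0.033 after normexp and 0.12 without centring, and that of TGFBR1 1.02 within 500 bp.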
